A study of Homo sapiens with 8 samples.

Results

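Oxidative phosphorylation was followed through 36 subunit genes, the 13 mRNAs of the mitochondrial genome and 23 nuclear genes, out of 58735 genes in the count table. The members were a fixed list of subunits of complexes I to V, core and accessory, with all 13 mitochondrially encoded mRNAs. The nuclear members were 10 subunits of complex I, 4 of complex II, 4 of complex III and 5 of complex IV. Complex V was covered by 2 mitochondrial genes alone. The list follows subunit roles and uses no threshold on the measured values. RNA-seq was measured in 2 groups of EPC2-hTERT, a telomerase-immortalised human esophageal epithelial cell line. The miR-155OE group had 4 libraries of a stable line made with lentivirus to overexpress miR-155-5p, and the CTRL group had 4 libraries of control cells, whose own construct the labels do not describe. Culture on permeable inserts lasted 2 days, followed by 5 days with 1.8 mM calcium in both groups, before exposure to air from above, under which such cells stratify. The labels describe 1 overexpressing line, give the replicate numbers 1 to 4 to both groups and leave unsaid whether these were separate cultures. Each p-value thus reflects the spread between these libraries alone, which may be technical. In bulk RNA, fewer cells of a kind and less RNA per cell cannot be told apart.

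The respiratory chain moves electrons from NADH through complex I, or from succinate through complex II, to ubiquinone, then through complex III and cytochrome c to complex IV, which reduces oxygen. Complexes I, III and IV pump protons across the inner mitochondrial membrane, and complex V, the ATP synthase, lets them back to make ATP. Complex II is built from nuclear genes alone, while the other complexes join subunits of both genomes. The mitochondrial mRNAs are cut from long transcripts that cover nearly the whole circular genome, so neighbouring genes share 1 primary transcript. The nuclear genes have a promoter each, and many of those promoters are known to bind NRF1, ETS-family factors of the GABP type or YY1.

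The overexpressed microRNA is shown here with its seed (bases 2 to 8, counted from the 5′ end) in capitals, because the seed sets which 3′ UTRs it can pair with. Its mature sequence is from RefSeq (GRCh38.p14, chr21:25573983-25574006, plus strand).
hsa-miR-155-5p: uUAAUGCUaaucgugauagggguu
The matching heptamer AGCATTA was searched on the sense strand in the longest 3′ UTR that GENCODE release 29 annotates for each gene. It was found in 2 of the 23 nuclear members, NDUFS1 and SDHC, against 1473 of the 12547 tested coding genes (11.7%). The mitochondrial mRNAs have no annotated 3′ UTR, and SDHA, the nuclear member with the lowest fold change, had no match. The 4 matches are shown with the heptamer in capitals, since they are the only places in the members' UTRs where these letters occur.
NDUFS1, UTR base 8171: tagcaacttttAGCATTAcccatgggaaa
SDHC, UTR base 7106: aatgataggctAGCATTAtttctcttaga
SDHC, UTR base 11087: tcttagttttgAGCATTAaatatatgtaa
SDHC, UTR base 11150: tcaattattttAGCATTAttattggctta
These 2 UTRs were 9368 bases (NDUFS1) and 12907 bases (SDHC) long, against a median of 661 bases over the nuclear members, and long UTRs hold more matches. The log2 fold change of miR-155OE over CTRL was 0.045 for NDUFS1 and −0.0032 for SDHC, neither of which passed the test. Over all tested coding genes the median was −0.012 with a match and 0.001 without one.

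The libraries held 33443635 to 52746852 counts each, and 15135 genes had enough reads to be tested. Libraries of 1 group differed with a chi-square of 15.8 to 82.5 per degree of freedom, where counting error alone gives about 1. Of the members, 35 of 36 passed that filter on low counts. The host gene of the microRNA, MIR155HG, had 0 reads in all 8 libraries, where 3 reads would be 0.0573 to 0.0901 CPM (counts scaled to a library of 1e6 counts), and the group labels could thus not be checked on it. The epithelial markers KRT5 and KRT14 stood at 5770 to 11833 CPM and TP63 at 214 to 267 CPM in all 8. The mucosal keratins KRT4 and KRT13 were lower in miR-155OE in 4 of 4 pairs, with edgeR adjusted p = 0.0745 and 0.181 on group alone and 0.00696 and 0.0185 with the replicate number as a block. Of 24 markers of fibroblasts, immune cells, endothelium and muscle, 5 had enough reads to be tested. Their summed level was 98.2 to 221 CPM in miR-155OE and 92.8 to 145 CPM in CTRL for the fibroblast list, nearly all of it COL1A1, while COL1A2, COL3A1, DCN and LUM had 0 reads in every library. It was 8.68 to 15.1 CPM in miR-155OE and 7.56 to 9.68 CPM in CTRL for the immune list, where SIGLEC8 and CPA3 had 0 reads in every library. The muscle list summed to 4.32 to 5.45 CPM in miR-155OE and 2.99 to 4.77 CPM in CTRL, with MYH6, MYH7, MYH2 and ACTN2 at 0, and the endothelial list to 1.37 to 2.83 CPM and 1.87 to 2.99 CPM in these groups.

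The question was what overexpressed miR-155-5p does to these epithelial cells. By edgeR's quasi-likelihood test on group alone, at a Benjamini-Hochberg adjusted p under 0.05, 0 of the 13 mitochondrial members and 0 of the 22 tested nuclear members changed. Of all genes tested, 488 of 15135 passed (3.22%). At an unadjusted p under 0.05 the count of members was also 0, where 19.3% of all genes reached it, and DESeq2 on group alone called 0 members and 7.00% of the genes it tested. No member had groups that did not overlap, which 11.4% of all genes had. The mitochondrial mRNAs had a median log2 fold change of −0.19 (range −0.26 to 0.0070) and the nuclear members one of 0.015 (range −0.31 to 0.12), against −0.0063 over all genes tested. Of the 12 mitochondrial fold changes below 0, 8 turned above 0 without miR-155OE replicate 1, 5 without CTRL replicate 3 and 3 without miR-155OE replicate 2 or CTRL replicate 4.

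The larger pattern lay between libraries within each group. The 13 mitochondrial mRNAs took 0.722, 1.02, 1.56 and 2.37% of all counts in miR-155OE replicates 1 to 4, against 0.901, 1.31, 2.26 and 2.00% in CTRL replicates 1 to 4. In both groups replicates 1 and 2 were low and replicates 3 and 4 high, and the groups overlapped over almost their whole range. The share averaged 1.42 ± 0.722% in miR-155OE and 1.62 ± 0.626% in CTRL (SD, n = 4 each), so the difference of −0.201 percentage points was smaller than either SD. The 23 nuclear members together took 0.126, 0.130, 0.132 and 0.136% in miR-155OE, against 0.127, 0.139, 0.128 and 0.134% in CTRL, nearly the same in every library. Their share averaged 0.131 ± 0.0045% in miR-155OE and 0.132 ± 0.0054% in CTRL (SD, n = 4 each). The highest library exceeded the lowest 3.28 times for the mitochondrial share and 1.10 times for the nuclear share. There were therefore 5.75, 7.84, 11.8 and 17.3 mitochondrial mRNA reads per read of the nuclear members in miR-155OE, and 7.09, 9.44, 17.6 and 14.9 in CTRL.

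**Figure D1:**
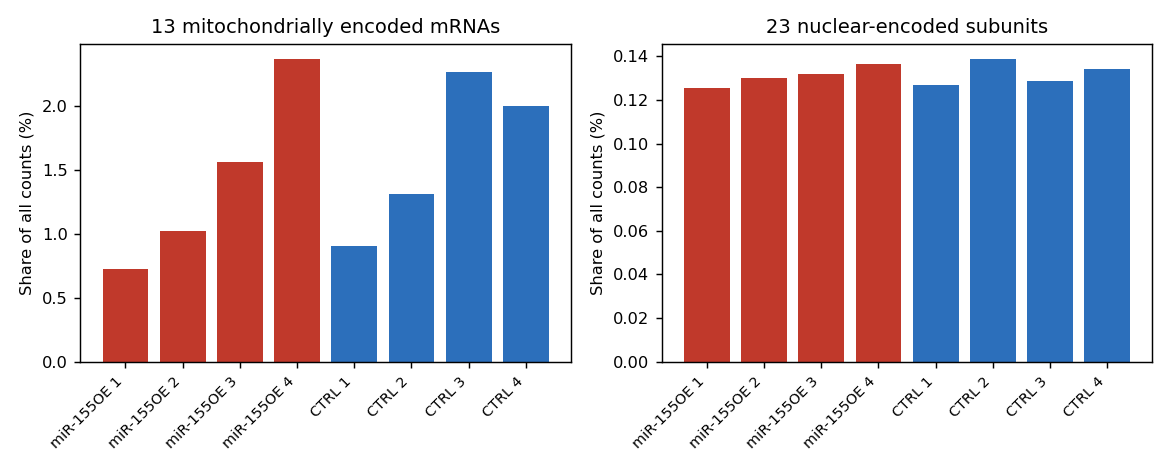
Share of all counts (%, vertical axes from 0) held by the 13 mitochondrially encoded mRNAs (left) and the 23 nuclear-encoded subunits (right), 1 bar per library, with miR-155OE in red and CTRL in blue. The mitochondrial share runs from 0.722 to 2.37% and the nuclear share from 0.126 to 0.139%.

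The same was seen gene by gene. The SD of log2 CPM over the 8 libraries had a median of 0.67 over the mitochondrial members (range 0.37 to 0.77) and of 0.11 over the nuclear members (range 0.036 to 0.28), against 0.20 over the 15112 tested genes with reads in every library. The highest library exceeded the lowest by 2.15 to 4.23 times for the mitochondrial mRNAs and by 1.09 to 1.57 times for the nuclear members. MT-ND5 was the most variable and NDUFS1 the least. The mitochondrial rRNAs varied less than the mRNAs: their share of counts was 0.286, 0.285, 0.376 and 0.554% in miR-155OE, and 0.327, 0.329, 0.518 and 0.498% in CTRL. The libraries with the fewest mitochondrial mRNA reads held the most rRNA per mRNA read, 0.396 in miR-155OE replicate 1 and 0.363 in CTRL replicate 1, against 0.229 to 0.279 in the other 6 libraries. What sets these libraries apart was not tested, and the labels name no batch.

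**Figure D2:**
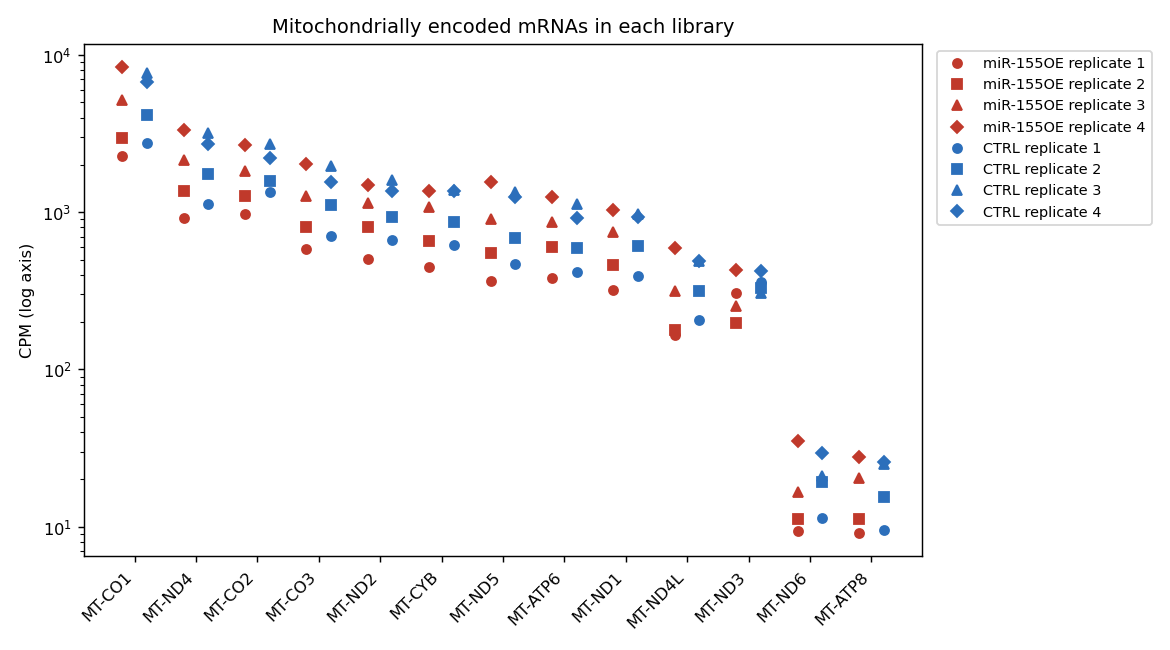
CPM (vertical log axis) of each mitochondrially encoded mRNA, ordered by mean level, with miR-155OE in red on the left and CTRL in blue on the right of each gene and 1 marker shape per replicate number. Replicate 1 is lowest in its group for 12 of 13 mRNAs in both groups, MT-ND3 being the exception, and red and blue overlap for every gene.

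Within pairs of libraries with the same number, the mitochondrial mRNAs went one way in 3 pairs and the other way in the fourth. They were lower in miR-155OE for 13 of 13 genes in pair 1, 12 of 13 in pair 2 and 13 of 13 in pair 3, where 50.0%, 48.3% and 49.9% of all genes were lower. In pair 4, 1 of 13 was lower, against 51.1% of all genes. The median log2 ratios of these pairs were −0.29, −0.42, −0.47 and 0.27. The nuclear members had 9, 17, 6 and 8 of 22 genes lower in pairs 1 to 4, with medians between −0.052 and 0.11. Neighbouring mitochondrial genes share a primary transcript, so their 13 signs are not separate observations.

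**Figure D3:**
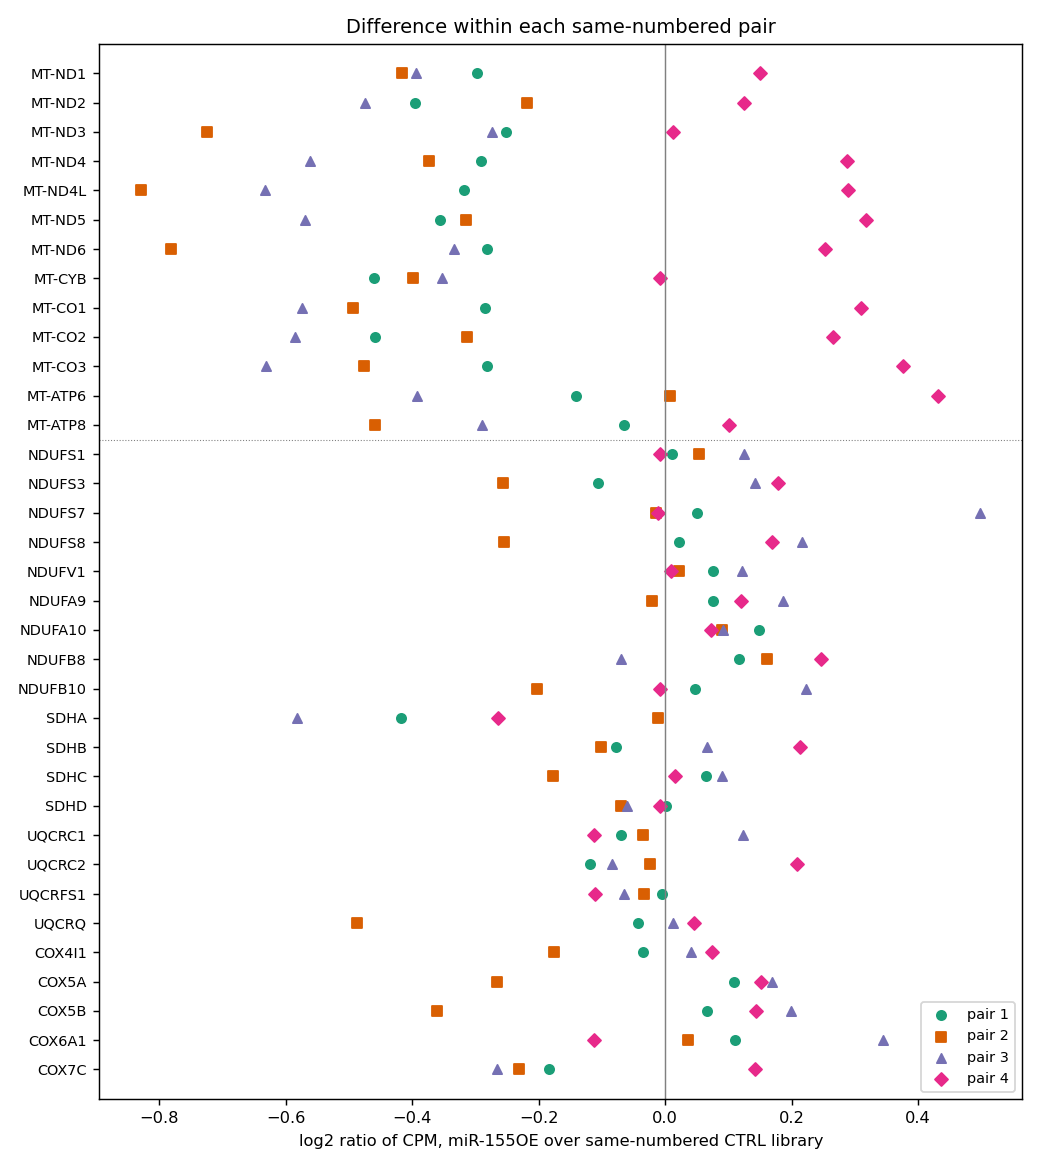
Log2 ratio of CPM, miR-155OE over the CTRL library of the same number (horizontal axis), for the 35 tested members (rows, mitochondrial above the dotted line), with 1 symbol per pair. Pairs 1 to 3 lie left of 0 and pair 4 right of it for most mitochondrial mRNAs, while the nuclear members lie closer to 0. SDHA and UQCRFS1 lie left of 0, and NDUFV1 and NDUFA10 right of it, in 4 of 4 pairs.

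Same-numbered libraries deviated together from their group means across genes for numbers 1, 2 and 4, with correlations of 0.494 to 0.604. For number 3 the correlation was 0.181, below that with another library (0.402). The fit was also made with the replicate number as a block. In that fit 12.6% of all genes passed, 5.17% as lower in miR-155OE, and 2 members passed, both lower: MT-CYB among the 13 mitochondrial members and SDHA among the 22 nuclear ones. That is 2 of 35 members. COL1A1 and CD14, the detected fibroblast and immune markers above, also passed in that fit as higher in miR-155OE (edgeR adjusted p = 0.0451 and 0.0239), and their part in the 2 calls was not tested. At an unadjusted p under 0.05 there were 6 members, 5 of them mitochondrial (MT-ND1, MT-ND2, MT-ND3, MT-ND4L and MT-CYB), all lower, where 28.3% of all genes were under that p and 13.4% both under it and lower. DESeq2 with the block called 3 of 35, MT-CYB, MT-ND3 and SDHA, against 11.9% of the genes it tested. With the libraries of number 4 left out, an alternative added after the values were seen, the blocked fit called 9 of 13 mitochondrial members as lower, where 6.41% of all genes passed and 2.28% as lower. Leaving out number 4 takes away the pair in which most of these mRNAs were higher in miR-155OE, so that count describes pairs 1 to 3 alone. It called 0 mitochondrial members with number 1 left out, where 4.07% of all genes passed and 1.22% as lower. It also called 0 with number 2 left out, where 13.4% of all genes passed and 5.98% as lower, and 0 with number 3 left out, against 9.14% of all genes and 3.82% as lower.

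**Figure D4:**
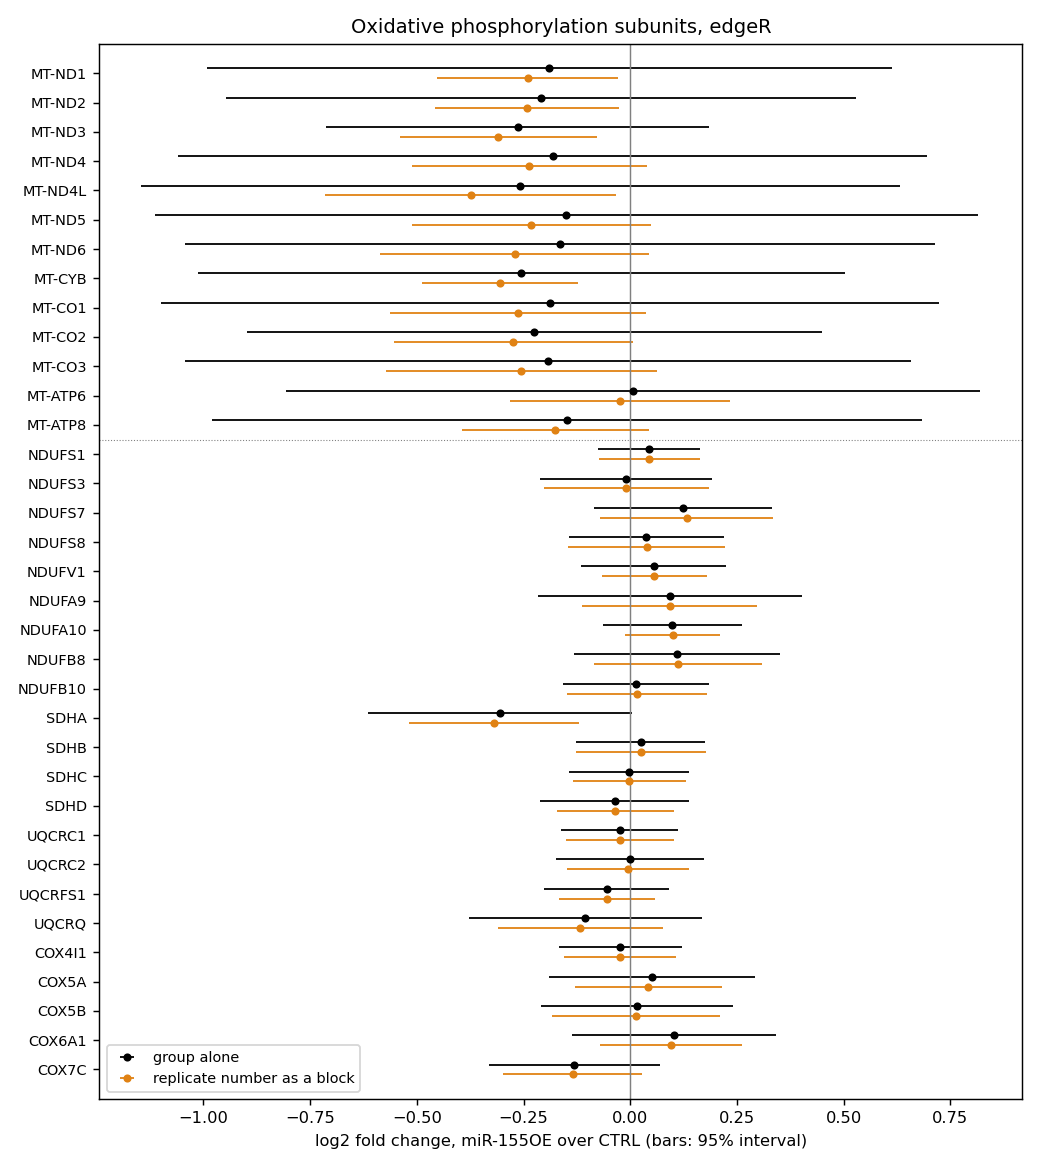
Log2 fold change of miR-155OE over CTRL (horizontal axis) for the 35 tested members, with 95% intervals from edgeR on group alone (black, upper) and with the replicate number as a block (orange, lower). Intervals on group alone reach from −1.15 to 0.82 for the mitochondrial mRNAs above the dotted line, and MT-CYB and SDHA are the members called with the block.

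The mitochondrial genome carries 7 subunits of complex I, all of them in the membrane arm. MT-ND4, a proton-pumping subunit and the most abundant of them by CPM, had 919, 1355, 2156 and 3313 CPM in miR-155OE replicates 1 to 4, against 1125, 1756, 3183 and 2716 CPM in CTRL replicates 1 to 4. The groups overlapped, with miR-155OE replicate 4 highest of all and miR-155OE replicate 1 lowest. Its log2 fold change was −0.18 (SE 0.40, edgeR adjusted p = 0.851). MT-ND5, another pumping subunit, had 366, 553, 905 and 1549.7 CPM in miR-155OE, against 469, 688, 1344 and 1243 CPM in CTRL, the widest span of any member as a ratio of highest to lowest library (4.23 times). MT-ND1, which forms part of the ubiquinone site, had 321, 458, 746 and 1032 CPM in miR-155OE, against 395, 612, 980.4 and 931 CPM in CTRL. MT-ND2 had 507, 803, 1153 and 1494 CPM in miR-155OE, against 666, 935, 1602 and 1371 CPM in CTRL. In MT-ND1 and MT-ND2 the CTRL library was above its miR-155OE partner in pairs 1 to 3 and below it in pair 4, and neither gene's groups parted.

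MT-ND3, a small subunit at the hinge of the 2 arms, departed from the common pattern. It had 304, 198, 253 and 427 CPM in miR-155OE, against 362, 328, 306 and 423 CPM in CTRL, and replicate 1 was not the lowest of either group. The log2 fold change was −0.26 (SE 0.20, edgeR adjusted p = 0.527), and −0.31 with the block (SE 0.10, adjusted p = 0.0801). Of the reads of the 13 mRNAs it held 4.19, 2.01, 1.61 and 1.77% in miR-155OE, against 3.98, 2.53, 1.34 and 2.11% in CTRL. Replicate 1 stood above the rest in both groups, and the highest library exceeded the lowest 3.12 times, against 1.10 to 1.61 times for the other 12 mRNAs. MT-ND6, the sole mRNA of the set read from the other strand of the circle, was the least abundant per length. It had 9.38, 11.1, 16.5 and 35.1 CPM in miR-155OE, against 11.4, 19.1, 20.8 and 29.5 CPM in CTRL, with replicate 4 highest in both groups. Without a stated strand setting, its reads cannot be told apart from those of the opposite strand.

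MT-ND4L had 166, 178, 315 and 595 CPM in miR-155OE, against 207, 316, 488 and 487 CPM in CTRL, with replicate 4 of miR-155OE highest and replicates 1 and 2 of miR-155OE lowest. MT-ND4L and MT-ND4 lie on 1 bicistronic mRNA and share 7 bases (GRCh38, chrMT:10760-10766, plus strand), shown because reads across them belong to both genes. The capitals mark the start codon of MT-ND4 and the stop codon of MT-ND4L.
MT-ND4L and MT-ND4: ATGcTAA
Per kilobase of gene length, MT-ND4L averaged 1158 ± 545 and MT-ND4 1499 ± 674 CPM per kb over the 8 libraries (SD, n = 8), and MT-ND4 was higher in 8 of 8.

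MT-CYB (ENSG00000198727; GRCh38, mitochondrial chromosome, 14747 to 15887, plus strand) is the sole mitochondrially encoded subunit of complex III and carries its hemes b. It had 451, 655, 1078 and 1362 CPM in miR-155OE replicates 1 to 4, against 620.1, 864, 1377 and 1369.8 CPM in CTRL replicates 1 to 4. Each miR-155OE library was below the CTRL library of its number, by a wide margin in pairs 1 to 3 and barely in pair 4, while the groups overlapped. The log2 ratios were −0.46, −0.40, −0.35 and −0.0084 in pairs 1 to 4. On group alone its log2 fold change was −0.25 (SE 0.34, 95% interval −1.01 to 0.50, edgeR adjusted p = 0.745). With the block it was −0.31 (SE 0.081, 95% interval −0.49 to −0.12, edgeR adjusted p = 0.0397). That call was lost without the libraries of number 1 (adjusted p = 0.225), number 2 (0.0982) or number 3 (0.0864), and kept without those of number 4 (0.0207). As a share of the 13 mRNAs MT-CYB was 6.21, 6.65, 6.86 and 5.64% in miR-155OE, against 6.82, 6.66, 6.04 and 6.83% in CTRL, lower in miR-155OE in 3 of 4 pairs.

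The 3 mitochondrial subunits of complex IV include the catalytic core. MT-CO1, which holds heme a and the oxygen-reducing centre, was the most abundant of the 13, with 2264, 2945, 5146 and 8357 CPM in miR-155OE, against 2759, 4145, 7667 and 6744 CPM in CTRL. MT-CO2, which takes electrons from cytochrome c, had 978, 1274, 1817 and 2676 CPM in miR-155OE, against 1344, 1583, 2727 and 2226 CPM in CTRL. MT-CO3 had 584, 799.8, 1261 and 2029 CPM in miR-155OE, against 709.9, 1113, 1954 and 1563 CPM in CTRL. For these 3 genes the highest miR-155OE library was replicate 4, the highest CTRL library was replicate 3, and the groups overlapped. Their log2 fold changes were −0.19, −0.22 and −0.19 (SE 0.41, 0.30 and 0.38), and none passed (edgeR adjusted p at least 0.748). MT-CO1 alone held 29.9 to 34.6% of the reads of the 13 mRNAs.

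MT-ATP6 and MT-ATP8 encode membrane subunits of the ATP synthase and also lie on 1 bicistronic mRNA. They overlap by 46 bases (GRCh38, chrMT:8527-8572, plus strand), 22.2% of MT-ATP8 and 6.75% of MT-ATP6. The overlap is shown because reads in it cannot be given to either gene alone. The capitals mark the start codon of MT-ATP6 and the stop codon of MT-ATP8.
MT-ATP8 and MT-ATP6: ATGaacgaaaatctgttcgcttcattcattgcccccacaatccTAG
MT-ATP8 had 9.07, 11.2, 20.4 and 27.6 CPM in miR-155OE, against 9.50, 15.4, 24.9 and 25.7 CPM in CTRL. MT-ATP6 had 380.1, 599, 865 and 1244 CPM in miR-155OE, against 419, 596, 1135 and 923 CPM in CTRL, with a log2 fold change of 0.0070 (edgeR SE 0.37, adjusted p = 0.995). It was the member of the 13 with a fold change not below 0 on group alone, and its miR-155OE libraries were lower in 2 of 4 pairs.

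As a share of the reads of the 13 mRNAs, 1 gene (7.69%), MT-ATP6, had groups that did not overlap. In CPM 11.4% of all genes did so, but shares of 1 common total are another measure. That percentage is thus no background for this count, and none was computed. It held 5.24, 6.09, 5.50 and 5.15% of the reads of the 13 mRNAs in miR-155OE replicates 1 to 4, against 4.61, 4.59, 4.98 and 4.60% in CTRL replicates 1 to 4. The share was higher in miR-155OE in 4 of 4 pairs, with means of 5.49 ± 0.422% in miR-155OE and 4.69 ± 0.188% in CTRL (SD, n = 4 each). MT-ATP6 was picked here after the values were seen, so no test is given. MTATP6P1, a nuclear copy of MT-ATP6 on chromosome 1 that is 98.53% identical over 681 bases, could share reads with it. Its reads were 5.50, 2.29, 2.33 and 4.74% of those of MT-ATP6 in miR-155OE, and 6.31, 5.17, 2.86 and 4.99% in CTRL, with overlapping groups. With its reads counted as MT-ATP6, the share was 5.51, 6.22, 5.62 and 5.39% in miR-155OE, against 4.88, 4.82, 5.11 and 4.82% in CTRL, again without overlap. That sum covers counted reads alone. Reads that fit both places may be in neither count, which was not tested. There were 0.651, 0.749, 0.686 and 0.613 MT-ATP6 reads per read of the adjoining MT-CO3 in miR-155OE, and 0.591, 0.535, 0.581 and 0.590 in CTRL. These ratios use the same MT-ATP6 reads, so they are not a separate observation. Nuclear copies of mitochondrial genes together held reads equal to 0.427 to 0.674% of those of the 13 mRNAs.

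**Figure D5:**
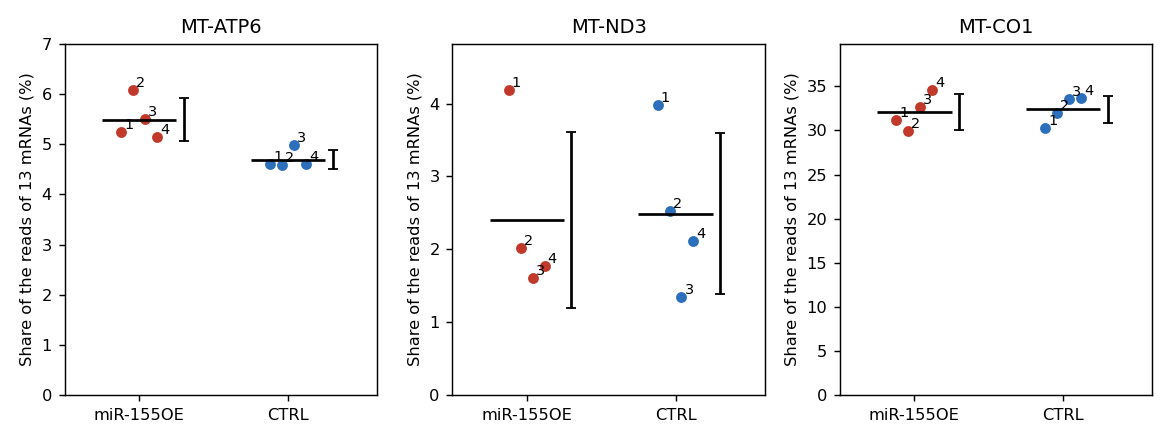
Share of the reads of the 13 mitochondrial mRNAs (%, vertical axes from 0) held by MT-ATP6, MT-ND3 and MT-CO1, with 1 point per library numbered by replicate, miR-155OE left and CTRL right. Lines are group means and bars 1 SD (n = 4); MT-ATP6 spans 5.15 to 6.09% in miR-155OE and 4.59 to 4.98% in CTRL.

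Per kilobase of gene length, the mitochondrial mRNAs kept much of 1 order, with MT-ND3 as the gene that moved most. MT-CO1 averaged 3245 ± 1529 CPM per kb over the 8 libraries (SD, n = 8) and MT-CO2 2673 ± 959, MT-CO1 being higher in 7 of 8. MT-CO3 at 1596 ± 708 CPM per kb stood above MT-ND4, and MT-ND4 above MT-ND4L, in 8 of 8 libraries. MT-ND4L, MT-ATP6, MT-ND2, MT-ND3 and MT-CYB, between 1158 and 852 CPM per kb on average, exchanged places, the first 4 of them each above the next in 5 to 6 of 8 libraries. MT-ND3 stood anywhere from place 3 to place 10. It was above MT-CO3 and MT-ND4 in replicate 1 of both groups, and below MT-ND1 in replicate 3 of both groups. MT-ND1 (716 ± 292 CPM per kb) was below MT-CYB in 8 of 8 libraries. MT-ND5 (491 ± 244), MT-ATP8 (86.9 ± 37.0) and MT-ND6 (36.4 ± 17.5 CPM per kb) closed the order in 8 of 8. MT-ATP8 is 207 bases long, so its level may depend on the fragment sizes of the libraries, which was not tested. Nuclear copies of MT-ND2, MT-ATP6 and MT-CO1 were 98.37, 98.53 and 98.7% identical to them. The places of these genes may thus depend on how reads that fit both were counted, which was also not tested.

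Of the 10 nuclear subunits of complex I, 9 were tested and none passed. Their log2 fold changes ran from −0.0093 to 0.12 with a median of 0.055, and 1 of 9 was below 0. NDUFS1, the iron-sulfur subunit of the NADH-oxidising module, was the steadiest member, with 52.4, 53.3, 54.8 and 52.4 CPM in miR-155OE, against 52.0, 51.4, 50.3 and 52.7 CPM in CTRL. Its 95% interval of −0.074 to 0.16 was the narrowest of the members. NDUFV1, which binds NADH and FMN, and NDUFA10, an accessory subunit, were higher in miR-155OE in 4 of 4 pairs, as were 18.8% of all genes. NDUFA10 had 61.1, 60.0, 67.1 and 67.4 CPM in miR-155OE, against 55.1, 56.4, 63.0 and 64.1 CPM in CTRL. The groups overlapped and its log2 fold change was 0.10 (SE 0.074, edgeR adjusted p = 0.515).

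The iron-sulfur subunit NDUFS7 had 35.2 ± 1.82 CPM in miR-155OE and 32.3 ± 4.05 CPM in CTRL (SD, n = 4 each). NDUFS8, which also carries iron-sulfur clusters, had 37.1 ± 2.77 CPM in miR-155OE and 36.2 ± 2.98 CPM in CTRL (SD, n = 4 each). NDUFS7 shared 49.1% of its annotated exonic bases with antisense genes, so its count is uncertain if reads were not assigned by strand. That setting is not given in the sources used here. NDUFB8 shared 48.5% with neighbours on either strand and 33.8% on its own strand, so its count is uncertain with either setting. NDUFS3, a core subunit of the peripheral arm, had 21.3 ± 1.93 CPM in miR-155OE and 21.4 ± 1.85 CPM in CTRL (SD, n = 4 each). It shared 19.6% of its exonic bases with another gene on the same strand. NDUFV1 had 42.5 ± 2.28 CPM in miR-155OE and 40.9 ± 3.54 CPM in CTRL (SD, n = 4 each). NDUFB8, an accessory subunit, had 9.53, 10.9, 10.9 and 11.9 CPM in miR-155OE, against 8.79, 9.78, 11.5 and 10.1 CPM in CTRL, with overlapping groups. NDUFB10, another, had 41.9 ± 2.46 CPM in miR-155OE and 41.5 ± 3.35 CPM in CTRL (SD, n = 4 each). NDUFA9 was the least abundant tested member per length, at 0.747 ± 0.103 CPM per kb over the 8 libraries (SD, n = 8). Its length counts all annotated exonic bases, 10391, of which 1103 overlap other genes on the same strand, so this value depends on the annotation. NDUFV2, another subunit of the NADH-oxidising module, fell below the filter with 1, 6, 5 and 7 reads in miR-155OE and 0, 0, 10 and 8 reads in CTRL. Of its 2711 annotated exonic bases, 771 overlap another gene on the same strand, and its pseudogene NDUFV2P1 had 34 reads in all against its 37, so these counts may not give its level.

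Complex II links the citric acid cycle to the chain. With all 8 libraries, 0 of its 4 subunits passed on group alone. With the block 1 passed, SDHA, where 12.6% of all genes passed. SDHA (ENSG00000073578; GRCh38, chromosome 5, 218241 to 256700, plus strand) is the flavoprotein that oxidises succinate. It had 32.0, 46.5, 32.0 and 30.5 CPM in miR-155OE replicates 1 to 4, against 42.8, 46.9, 47.9 and 36.7 CPM in CTRL replicates 1 to 4. Replicates 1, 3 and 4 of miR-155OE were below every CTRL library, while replicate 2 of miR-155OE was close to CTRL replicate 2, so the groups overlapped. On group alone the log2 fold change was −0.31 (SE 0.14, 95% interval −0.61 to 0.0032, edgeR adjusted p = 0.264). With the block it was −0.32 (SE 0.088, adjusted p = 0.0452), lower in 4 of 4 pairs, as were 16.9% of all genes, with log2 ratios of −0.42, −0.012, −0.58 and −0.27. Without miR-155OE replicate 2 the fit on group alone gave −0.47 (edgeR adjusted p = 0.0200). The blocked call was lost without the libraries of number 1 (edgeR adjusted p = 0.201), 3 (0.120) or 4 (0.119), and without those of number 2 it was −0.42 (0.0110). In the authors' deposited table SDHA had a log2 fold change of −0.30 with an adjusted p of 0.254.

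SDHA has a pseudogene on chromosome 3, SDHAP1, that was 95.7% identical over 2046 aligned bases and took reads equal to 12.5% of those of SDHA. SDHAP1 had 4.96, 5.07, 4.74 and 3.80 CPM in miR-155OE, against 5.53, 5.18, 6.11 and 3.95 CPM in CTRL, with a log2 fold change of −0.16 (edgeR adjusted p = 0.630). With both counted together the level was 37.0, 51.6, 36.7 and 34.4 CPM in miR-155OE, against 48.3, 52.1, 54.0 and 40.7 CPM in CTRL, in the same order as SDHA alone. The other subunits did not pass in either fit. SDHB, the iron-sulfur protein, had 40.0 ± 1.84 CPM in miR-155OE and 39.3 ± 2.45 CPM in CTRL (SD, n = 4 each). SDHC, a membrane anchor, had 88.5 ± 2.86 CPM in miR-155OE and 88.7 ± 5.54 CPM in CTRL (SD, n = 4 each), and SDHD, the other anchor, had 24.0 ± 1.32 CPM in miR-155OE and 24.6 ± 1.92 CPM in CTRL (SD, n = 4 each). Their 95% intervals lay between −0.21 and 0.18, and the difference between SDHA and these 3 was not itself tested.

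The promoters of complex II, the complex built from nuclear genes alone, are shown as a description. Whether they bear on the SDHA call was not tested. Each covers 250 bases before and 50 bases from the annotated start, from RefSeq on GRCh38.p14, and 22 of the 23 nuclear members had one (SDHC did not). Capitals mark matches, on either strand, to GCATGCGC (core of the NRF1 motif), CCGGAAG (ETS) or AAGATGGCG (YY1), and no match of one motif overlapped that of another in these 3.
SDHA, chr5:218070-218369, plus strand: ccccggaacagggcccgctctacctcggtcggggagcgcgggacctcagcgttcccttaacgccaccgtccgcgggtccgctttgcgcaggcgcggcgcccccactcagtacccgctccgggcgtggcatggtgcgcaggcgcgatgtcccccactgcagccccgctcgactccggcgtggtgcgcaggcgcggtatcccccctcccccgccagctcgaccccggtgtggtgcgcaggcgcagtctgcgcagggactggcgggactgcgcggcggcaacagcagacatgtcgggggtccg
SDHB, chr1:17053983-17054282, minus strand: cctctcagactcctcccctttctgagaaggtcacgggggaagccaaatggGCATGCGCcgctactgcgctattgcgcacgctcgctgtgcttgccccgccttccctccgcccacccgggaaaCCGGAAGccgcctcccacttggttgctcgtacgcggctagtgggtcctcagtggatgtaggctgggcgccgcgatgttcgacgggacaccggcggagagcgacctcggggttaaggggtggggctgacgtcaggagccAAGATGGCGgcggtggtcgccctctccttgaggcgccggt
SDHD, chr11:112086623-112086922, plus strand: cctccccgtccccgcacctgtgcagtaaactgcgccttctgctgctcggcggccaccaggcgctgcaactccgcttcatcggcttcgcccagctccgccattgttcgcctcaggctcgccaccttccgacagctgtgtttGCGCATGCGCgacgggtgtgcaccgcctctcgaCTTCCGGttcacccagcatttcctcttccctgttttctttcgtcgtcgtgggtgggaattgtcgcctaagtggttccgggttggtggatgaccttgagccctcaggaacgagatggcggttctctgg
SDHB held 1 match to each of the 3 motifs, and SDHD held the NRF1 core on both strands of 1 palindrome and 1 ETS match. SDHA held 0 exact matches, as did 11 of the 22 member promoters, itself included. Only these exact letters were searched, so a promoter with 0 may still hold other forms of the motifs. Over the 22 member promoters, the NRF1 core was in 5 (22.7%), the ETS motif in 8 (36.4%) and the YY1 motif in 4 (18.2%), against 3.27, 10.67 and 1.85% of all 27305 promoters and 5.37, 18.97 and 3.94% of those of 10438 tested genes. A match is a description of these windows only. The mitochondrial members have no promoter in these windows.

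The 4 nuclear subunits of complex III had log2 fold changes of −0.10 to −0.00011 and 0 of 4 passed. UQCRFS1, the Rieske iron-sulfur protein, had 60.9, 65.0, 60.0 and 65.3 CPM in miR-155OE, against 61.1, 66.5, 62.8 and 70.5 CPM in CTRL. It was lower in 4 of 4 pairs by small amounts, and the groups overlapped (log2 fold change −0.055, SE 0.066, edgeR adjusted p = 0.709). UQCRQ, a small subunit, varied most of the 4, with 66.3, 57.1, 75.2 and 87.7 CPM in miR-155OE, against 68.3, 80.0, 74.6 and 85.0 CPM in CTRL. Replicate 2 of miR-155OE was its lowest library. UQCRC1, a core protein, had 101 ± 3.00 CPM in miR-155OE and 102 ± 5.61 CPM in CTRL (SD, n = 4 each). UQCRC2, the other core protein, had 98.6 ± 10.2 CPM in miR-155OE and 98.6 ± 3.57 CPM in CTRL (SD, n = 4 each).

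The 5 nuclear subunits of complex IV had log2 fold changes of −0.13 to 0.10, and 0 of 5 passed. COX7C, a small subunit, was the most abundant nuclear member per length, at 62.8 ± 6.34 CPM per kb over the 8 libraries (SD, n = 8). Lengths count all annotated exonic bases, 1993 for COX7C and 4792 for COX4I1, so that rank depends on the annotation. By CPM, COX4I1 was above COX7C. COX7C had 107, 112, 120.1 and 138 CPM in miR-155OE, against 122, 132, 144 and 125 CPM in CTRL. It was lower in miR-155OE in pairs 1 to 3 and higher in pair 4, the order most mitochondrial mRNAs showed, with a log2 fold change of −0.13 (edgeR SE 0.090, adjusted p = 0.476). COX6A1 had 52.8, 61.0, 63.2 and 45.8 CPM in miR-155OE, against 48.9, 59.5, 49.8 and 49.6 CPM in CTRL, and CTRL replicate 2 stood above the other CTRL libraries. COX4I1, the regulatory subunit that can bind ATP, had 170.3 ± 9.75 CPM in miR-155OE and 173 ± 6.59 CPM in CTRL (SD, n = 4 each). COX5A had 63.0 ± 9.93 CPM in miR-155OE and 60.9 ± 4.86 CPM in CTRL (SD, n = 4 each), and COX5B had 66.5 ± 8.27 CPM in miR-155OE and 65.8 ± 6.39 CPM in CTRL (SD, n = 4 each). The miR-155OE replicate 2 library was the lowest of the 8 for COX5A, COX5B, COX4I1 and UQCRQ.

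The rest of the pathway was read from lists of 249 further tested genes, of which 2 were higher and 0 lower in miR-155OE on group alone, against 2.17 and 1.05% of all genes, and 9 were higher and 4 lower with the block, against 7.43 and 5.17%. CYC1, the cytochrome c1 subunit of complex III, had 73.8, 60.0, 80.5 and 71.3 CPM in miR-155OE, against 48.7, 53.9, 46.2 and 54.0 CPM in CTRL, every miR-155OE library above every CTRL library. Its log2 fold change was 0.49 (SE 0.094, edgeR adjusted p = 0.0246). That call was lost without CTRL replicate 1 (edgeR adjusted p = 0.0750), CTRL replicate 3 (0.0770), miR-155OE replicate 1 (0.0771) or miR-155OE replicate 3 (0.0694), where the log2 fold change was still 0.435 to 0.479. IDH2, the mitochondrial NADP-dependent isocitrate dehydrogenase, had 26.4, 27.4, 26.8 and 30.8 CPM in miR-155OE, against 19.1, 19.2, 15.3 and 20.2 CPM in CTRL, again without overlap. Its log2 fold change was 0.60 (SE 0.10, edgeR adjusted p = 0.0133), and it passed without any 1 of the 8 libraries. Groups did not overlap for 15 of the 249 genes, against 11.4% of all genes. The median log2 fold change of the 249 genes was 0.0086.

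None of the 27 other complex I subunits passed in either fit. The lowest p were those of NDUFB9 (log2 fold change 0.52, edgeR adjusted p = 0.121), NDUFA3 (−0.34, 0.227) and NDUFB3 (−0.22, 0.243). None of the 7 other tested complex IV subunits passed, COX6C having 0.17, COX7A2 −0.19 and COX8A 0.10. None of the 18 nuclear ATP synthase subunits passed either, with log2 fold changes of −0.30 for ATP5F1E, −0.18 for ATP5PD and 0.14 for ATP5F1B, the catalytic beta subunit. The median log2 fold change was −0.032 over the complex I list, 0.11 over the 5 other complex III subunits, −0.051 over the complex IV list and −0.025 over the ATP synthase list.

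Among genes that build the complexes or express the mitochondrial genome, 0 passed on group alone. The shares that passed with the block stood at 8.33% of the assembly factors, 3.03% of the genes of mitochondrial DNA replication, transcription and RNA processing, and 3.90% of the mitochondrial ribosomal proteins, all below the 12.6% of all genes. Of 48 assembly factors, 3 were higher and 1 lower with the block. TTC19, a complex III factor, had 22.2 ± 2.70 CPM in miR-155OE and 16.6 ± 1.53 CPM in CTRL (SD, n = 4 each), with a blocked edgeR adjusted p of 0.0152. The others were TMEM70, an ATP synthase factor (blocked edgeR adjusted p = 0.0183), COA7 (0.0190) and, lower, COA1 (0.00422). POLG, the polymerase that copies mitochondrial DNA, was the 1 of 33 genes of mitochondrial DNA replication, transcription and RNA processing that passed with the block. It had 82.1, 83.9, 73.9 and 67.4 CPM in miR-155OE, against 97.8, 93.5, 91.9 and 82.9 CPM in CTRL, lower in 4 of 4 pairs (log2 fold change −0.25, edgeR adjusted p = 0.129 on group alone and 0.0140 with the block). Of 77 mitochondrial ribosomal proteins, MRPL13 and MRPL42 were higher and MRPL38 lower with the block, MRPL38 at under 1 CPM on average. Of 18 genes listed for the citric acid cycle and pyruvate dehydrogenase, IDH2, OGDH and FH (16.7%) were higher with the block, and none lower. Of all genes, 7.43% passed as higher in that fit. None of 9 regulators of mitochondrial biogenesis passed in either fit, among them TFAM (0.13), which packages mitochondrial DNA and starts its transcription, NRF1 (0.10) and GABPB1 (0.14). Of 9 hypoxia-regulated mitochondrial genes, 1 passed (11.1%): ISCU, an iron-sulfur scaffold, was lower with the block (log2 fold change −0.23, blocked edgeR adjusted p = 0.0410). The 2 mitochondrial rRNA genes did not pass.

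Of the 249 genes, 12 lie on chromosome 8, and 11 of those 12 had a log2 fold change above 0, with a median of 0.32, against 0.0052 over the 237 elsewhere and 0.15 over all 531 tested genes of that chromosome. CYC1, TMEM70, MRPL13 and NDUFB9 are among them, and BNIP3L, the gene below 0, has the lowest start of the 12. Of the 531 genes, 215 were below 0. On group alone 49 passed as higher and 34 as lower, both larger shares than the 2.17 and 1.05% of all genes. The groups did not overlap for 189 of the 531, also a larger share than the 11.4% of all genes. More genes of this chromosome were thus called, but it did not move one way as a whole. No member of the 36 lies there. Whether position sets the level of CYC1 was not tested.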

How the data were processed

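The deposited counts are whole reads per Ensembl gene, per the file headers. Tools listed in the submitters' processing notes are featureCounts 1.5.0-p3, HISAT2 2.0.5 and DESeq2, with the build GRCh38, while strand setting and annotation release are not given in the sources used here. All 36 members have the positions of GENCODE release 29. A second deposited table gave the authors' log2 fold change, p-value and adjusted p-value for SDHA, and its normalised signal was not used. Libraries were grouped by their titles.

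Counts were fitted in R 4.3.3 with edgeR 4.0.16: filterByExpr (15135 of 58735 genes), TMM scaling, the quasi-likelihood F test on group alone, and Benjamini-Hochberg adjustment over all genes tested at 0.05. CPM was computed on library sizes after TMM scaling. Each SE and 95% interval was derived from the fold change and its F statistic, so they restate the test. Alternatives were a replicate block, RLE size factors, DESeq2 1.42.0, no filter, library sizes without mitochondrial genes, and leaving out libraries. Floors of 3 reads cover counting error only.

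Numbers were taken to pair the libraries, because the deviations from the group mean of libraries with a shared number had correlations over 10291 genes of 0.576 (number 1), 0.494 (number 2), 0.181 (number 3) and 0.604 (number 4), although for number 3 another library correlated better (0.402). Without the members the values were 0.562, 0.493, 0.177 and 0.601 over 10256 genes.

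The members, the pathway lists and the markers were chosen with earlier results of these data known. From each list the genes past the threshold and the 3 with the lowest p were named; COA1, MRPL42, FH, KRT4, KRT13 and chromosome 8 genes were named after their values were seen. Sequences are from RefSeq (GRCh38.p14) and GENCODE, read with Python 3.11.15 and biopython 1.88, and figures were drawn with matplotlib 3.10.9.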

Additional observations from a re-analysis of the deposited data

Results flagged for a closer look

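Of 74 sets of 4 values checked, each a group's CPM or share for 1 member or summed measure, 2 held a library far from the other 3 by Dixon's criterion, which chance meets in about 1 set in 20. SDHA stood at 46.5 CPM in miR-155OE replicate 2, far above the other miR-155OE libraries. COX6A1 stood at 59.5 CPM in CTRL replicate 2, far above the other CTRL libraries.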

How the results depend on the processing

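Of 700 fitted member values over 20 settings, 680 kept their side of the threshold, 20 moved past it and 0 reversed after being called; without the block, 419 of 420 kept it, the exception being SDHA without miR-155OE replicate 2. Leaving out 1 library at a time gave 0 to 0 mitochondrial members, 0 to 1 nuclear members, 125 to 1274 of all genes and 1 to 10 pathway-list genes, and a group difference of −0.518 to 0.0303 percentage points in the mitochondrial share and −0.00271 to 0.0013 in the nuclear share. The mitochondrial member count was 0 on group alone, 1 with the replicate block, with the block and library sizes without mitochondrial genes, and with the block and RLE size factors, 2 with the block in DESeq2, and 9 with the block without replicate 4. The nuclear member count was 1 with the block, with the block and sizes without mitochondrial genes, with the block without replicate 2, with the block and RLE, and with the block in DESeq2. All genes called numbered 488 on group alone, 1202 in DESeq2, 927 with no filter, 1908 with the block, 1917 with the block and sizes without mitochondrial genes, 623, 2059, 1389 and 971 with the block without replicate 1, 2, 3 and 4, 1917 with the block and RLE, and 1855 with the block in DESeq2. Pathway-list genes called numbered 2 on group alone, 7 in DESeq2, 6 with no filter, 13 with the block, 13 with the block and sizes without mitochondrial genes, 2, 15, 11 and 4 with the block without replicate 1, 2, 3 and 4, 13 with the block and RLE, and 13 with the block in DESeq2. The blocked fits with a number left out, with RLE and in DESeq2 were added after seeing the data. The cause of these moves was not tested.

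With 4 libraries a group, the 95% intervals of the mitochondrial members on group alone ran on the log2 scale from the narrowest, −0.71 to 0.18 for MT-ND3, to the widest, −1.11 to 0.81 for MT-ND5. Each interval surrounds its own estimate, so it does not give the smallest difference that the test could call. The nuclear members' intervals stayed within −0.61 to 0.40. NDUFV2, with 37 reads in all, had 0.28 on the log2 scale (edgeR SE 0.84, adjusted p = 0.904) with no filter.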
